A study of Homo sapiens with 17 samples.

Results

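The MCM genes encode the replicative helicase of human cells, and 7 of them (MCM2, MCM3, MCM4, MCM5, MCM6, MCM7 and MCM10) were followed here across every treatment of a myeloma cell line. They are the genes of the helicase ring together with MCM10, taken by name, with earlier results of these data known. The 7 are among 19775 genes measured, and 16 of the 54613 probe sets on the array are annotated to them and to no other gene. Where a gene had several probe sets, the one with the highest mean signal stood for it, and its other probe sets were kept as a check.

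MCM2, MCM3, MCM4, MCM5, MCM6 and MCM7 form a ring that is loaded around DNA at replication origins before S phase, a step called licensing. The ring stays inactive until CDC45 and the GINS complex join it, and MCM10 then takes part in turning the assembled helicase on. Transcription of many of these genes is known to follow the E2F factors and to be high in dividing cells and low in resting ones, so MCM levels are widely used as a sign of proliferation.

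Total RNA of L363 cells, a human multiple myeloma line, was measured after 48 h of culture. The 6 groups were untreated control cells, 0.5 uM MS275 (an inhibitor of class I histone deacetylases), 1 nM rapamycin, 10 nM rapamycin (an inhibitor of the kinase mTOR), and MS275 at the same dose added to either dose of rapamycin, called the 1 nM and the 10 nM combination. Each group held 3 arrays except the 10 nM combination, which held 2 because the submitters disqualified 1 array in quality control. The values are log2 signals, on which a difference of 1 is a 2-fold change. Overlap between groups was read for the members only, and the share of all genes without overlap was not counted. All groups are the same cell line, and nothing in the labels says whether replicates were separate cultures, so p-values measure the spread between these arrays, which may be technical.

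All 8 plasma cell markers lay above the median gene (6.07), with means from 8.09 to 12.59. None of the 4 T cell, 3 measured myeloid or 3 epithelial markers did, while 1 of 3 B cell (CD22), 1 of 3 fibroblast (COL1A1) and the 1 measured red cell marker (HBB) did, at 6.40 to 7.09. Array medians ran from 5.09 to 5.36. A pair of arrays stood apart, replicate 1 of the control and of the 1 nM combination, with a narrower range of values (SD over genes 2.14 and 2.15, against 2.27 to 2.37 on the other 15 arrays). These narrow arrays carry low MCM6 values in their groups, so counts are given with and without them where they matter. In bulk RNA, fewer cells in cycle and less MCM RNA per cell cannot be told apart.

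Promoter sequences are shown for MCM2, MCM3, MCM6 and MCM10, each with 1 listed promoter. These members moved together over the arrays to differing degrees, with Pearson r from 0.36 (MCM3 and MCM6) to 0.94 (MCM2 and MCM10). Whether any factor links them was not tested. RefSeq promoters (GRCh38.p14) were matched for 5 of the 7 members, and each window below runs from 250 bases before to 30 bases after the listed start, read in the gene's own direction. Capitals mark matches to any of the E2F words TTTCCCGC, TTTCGCGC, TTTGCCGC and TTTGGCGC on either strand.
MCM2 promoter (chr3:127598161-127598440, + strand): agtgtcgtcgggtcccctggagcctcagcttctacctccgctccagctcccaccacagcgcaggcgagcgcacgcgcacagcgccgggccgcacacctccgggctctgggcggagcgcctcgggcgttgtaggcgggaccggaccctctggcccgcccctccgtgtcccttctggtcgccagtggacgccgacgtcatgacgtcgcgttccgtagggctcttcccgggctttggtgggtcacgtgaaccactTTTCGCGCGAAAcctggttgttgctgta
MCM3 promoter (chr6:52284713-52284992, - strand): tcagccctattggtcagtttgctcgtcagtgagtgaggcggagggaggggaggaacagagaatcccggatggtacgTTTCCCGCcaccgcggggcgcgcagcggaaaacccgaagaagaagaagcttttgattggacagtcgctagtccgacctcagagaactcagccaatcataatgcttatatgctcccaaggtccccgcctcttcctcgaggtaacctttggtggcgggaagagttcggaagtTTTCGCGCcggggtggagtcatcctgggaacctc
MCM6 promoter (chr2:135876414-135876693, - strand): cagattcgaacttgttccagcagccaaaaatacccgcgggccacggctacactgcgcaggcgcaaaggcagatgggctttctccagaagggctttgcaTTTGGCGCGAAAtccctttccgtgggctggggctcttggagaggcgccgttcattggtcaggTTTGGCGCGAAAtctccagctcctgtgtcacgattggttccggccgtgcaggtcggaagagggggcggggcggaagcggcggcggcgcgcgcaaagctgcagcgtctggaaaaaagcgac
MCM10 promoter (chr10:13161308-13161587, + strand): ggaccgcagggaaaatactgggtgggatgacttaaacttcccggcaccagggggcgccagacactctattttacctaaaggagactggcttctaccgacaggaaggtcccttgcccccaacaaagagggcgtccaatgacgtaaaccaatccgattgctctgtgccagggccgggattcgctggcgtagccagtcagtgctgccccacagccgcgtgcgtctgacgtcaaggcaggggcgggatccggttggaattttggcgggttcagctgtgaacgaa
Of the 5 matched members, 4 held an E2F word in the first promoter listed for them, against 3.14% of all 35116 promoters in the table. MCM2 held TTTCGCGC on both strands at +3 and +7, as overlapping matches of a palindrome next to the start. MCM3 held TTTCCCGC at -174 and TTTCGCGC at -4. MCM6 held 4 matches in overlapping pairs at -152 and -148 and at -90 and -86, so the same element occurs at a pair of places. For MCM7 (chr7:100101368-100101647, - strand) the first listed start held TTTCCCGC on the opposite strand at -187 and TTTCGCGC at -9, whereas its other 2 listed starts held 0. MCM10 held 0. The sequence CCAAT, which NF-Y binds, was present on either strand in 4 of the 5, against 33.6% of all promoters. The words and the window were chosen after these sequences had been seen, and a match is a description of letters, not a binding site.

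Untreated cells had high MCM signals. On the log2 scale, MCM7 averaged 11.23 ± 0.12 (SD, n = 3), MCM2 11.01 ± 0.48, MCM5 10.68 ± 0.26, MCM4 10.41 ± 0.30, MCM6 10.38 ± 1.36, MCM3 10.33 ± 0.07 and MCM10 8.41 ± 1.01. Levels of different genes come from different probes and are not ranked against each other here. The large SDs of MCM6 and MCM10 came from control replicate 1, which read 8.83 for MCM6 against 10.93 and 11.38, and 7.24 for MCM10 against 9.03 and 8.97.

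**Figure D1:**
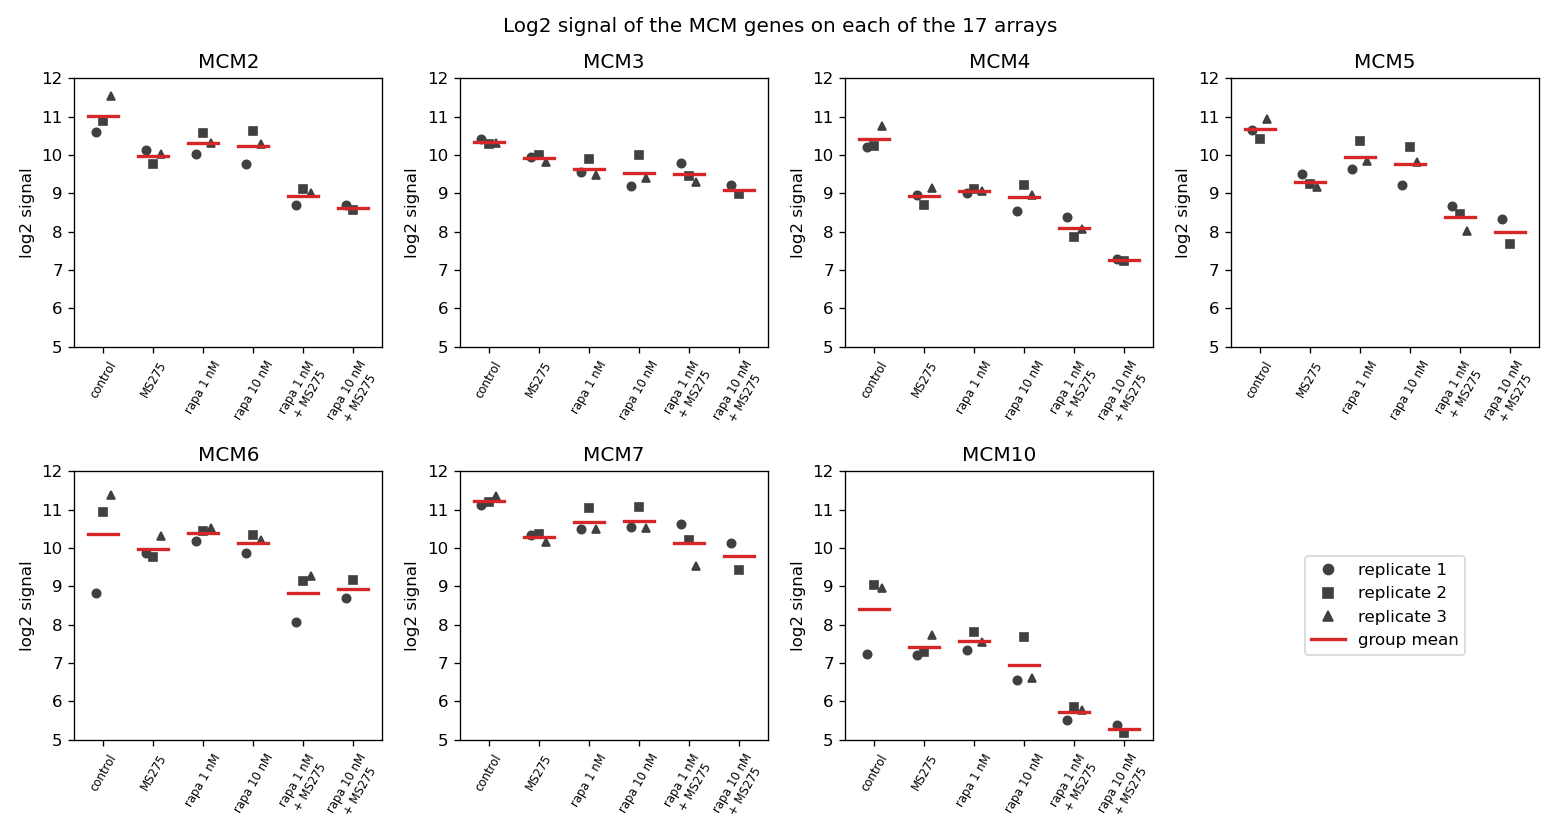
Log2 signal (vertical axis) of each MCM gene on every array, by treatment group (horizontal axis); symbols are replicates and red bars are group means. Means of MCM2, MCM4, MCM5 and MCM10 step down from single drugs to combinations, those of MCM3 and MCM7 fall less, and control replicate 1 is low for MCM6 (8.83) and MCM10 (7.24).

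MCM4 and MCM5 fell with MS275 alone, while the other members were lower without passing the test. MCM4, a core ring subunit, read 10.22, 10.25 and 10.76 in control and 8.97, 8.70 and 9.15 with MS275. All MS275 values lay below all control values, and the change was -1.47 ± 0.21 on the log2 scale (SE), 2.77-fold down (limma adjusted p = 0.00323). MCM5, which forms the gate of the ring together with MCM2, read 10.66, 10.43 and 10.94 in control and 9.50, 9.24 and 9.16 with MS275. The groups did not overlap, and MCM5 fell 2.59-fold (log2 change -1.37 ± 0.28, limma adjusted p = 0.0248). So 2 of 7 members fell, where 0.455% of all genes tested did, and the median change of the 7 was -1.0 against -0.05 over all genes.

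MCM2 read 10.60, 10.89 and 11.53 in control and 10.14, 9.78 and 10.03 with MS275, which did not overlap. Its change of -1.02 ± 0.26 missed the threshold (limma adjusted p = 0.0697) and passed it with the replicate number as a block (adjusted p = 0.0301). MCM7 (-0.94 ± 0.27, adjusted p = 0.12) and MCM3 (-0.41 ± 0.21, adjusted p = 0.533) also lay below every control value without passing. MCM10 (-1.0 ± 0.40) and MCM6 (-0.40 ± 0.50) overlapped control through control replicate 1. Without the 2 narrow arrays 5 members passed, MCM2, MCM6 and MCM10 joining the first pair. The share of all genes passing in that fit was not counted. The MCM5 call was lost without control replicate 3 or any 1 of the MS275 arrays, which left 1 member, and without control replicate 1 the count was 4. With only these 2 groups in the fit, 0 members passed. With the mean of each gene's probe sets, the MCM4 call was lost (-0.47, limma adjusted p = 0.638) and MCM7 passed (-1.17, limma adjusted p = 0.0224).

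MCM4 was the only member to pass the test with rapamycin alone, at both doses. It read 9.01, 9.11 and 9.07 with 1 nM and 8.54, 9.23 and 8.96 with 10 nM rapamycin, all below the lowest control value of 10.22. The falls were 2.54-fold (log2 change -1.35 ± 0.21, limma adjusted p = 0.0284) and 2.83-fold (-1.50 ± 0.21, limma adjusted p = 0.013). Thus 1 of 7 members fell at 1 nM, where 0.0809% of all genes did, and 1 of 7 at 10 nM, where 0.369% did. The members' median change was -0.70 at 1 nM and -0.80 at 10 nM.

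The remaining members were mostly lower with rapamycin but did not pass. MCM2 changed by -0.70 ± 0.26 and -0.77 ± 0.26 at 1 and 10 nM, MCM3 by -0.69 ± 0.21 and -0.80 ± 0.21, and MCM5 by -0.73 ± 0.28 and -0.92 ± 0.28. MCM7 changed by -0.54 ± 0.27 and -0.52 ± 0.27. MCM10 read 7.34, 7.81 and 7.55 at 1 nM and 6.56, 7.67 and 6.60 at 10 nM, against a control group that spans 7.24 to 9.03, with changes of -0.85 ± 0.40 and -1.47 ± 0.40. MCM6 gave 0.00 ± 0.50 and -0.24 ± 0.50 against a control group that spans 8.83 to 11.38. Without control replicate 1 these became -0.77 and -1.01, still not passing, and with array weights -0.99 and -1.19, both passing. The MCM4 call at 1 nM was lost, leaving 0 members, without control replicate 1 or 3 or any 1 of the 1 nM arrays, and at 10 nM without control replicate 3 or replicate 1 of 10 nM rapamycin. Without control replicate 1 MCM10 joined it at 10 nM, which made 2. Averaging the probe sets of each gene, or fitting only the 2 groups compared, left 0 members at either dose.

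With both drugs, nearly the whole helicase set was lower than in control. In the 10 nM combination MCM4 read 7.29 and 7.23 against 10.22 to 10.76 in control, a fall of 8.88-fold (log2 change -3.15 ± 0.24, limma adjusted p = 3.27e-05). MCM10 read 5.39 and 5.18 against 7.24 to 9.03 and fell 8.76-fold (-3.13 ± 0.45, limma adjusted p = 0.00148). MCM5 read 8.33 and 7.68 and fell 6.37-fold (-2.67 ± 0.32, limma adjusted p = 0.000406). MCM2 read 8.69 and 8.57 and fell 5.19-fold (-2.37 ± 0.29, limma adjusted p = 0.000486). For all 4 genes, both combination arrays lay below every control array, though how many of all genes did so was not counted.

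MCM7 and MCM3 fell less in the same cells. MCM7 read 10.14 and 9.44 against 11.13 to 11.36, a 2.71-fold fall (-1.44 ± 0.30, limma adjusted p = 0.019), and MCM3 read 9.21 and 8.99 against 10.28 to 10.41, a 2.35-fold fall (-1.23 ± 0.23, limma adjusted p = 0.00883). MCM6 read 8.71 and 9.16, 1 array below and 1 above control replicate 1, and its change of -1.45 ± 0.56 did not pass (adjusted p = 0.22). In all, 6 of 7 members fell in the 10 nM combination, where 2.24% of all genes did, with a median of -2.37 against -0.08 over all genes. Without control replicate 1, MCM6 passed too (-2.22). MCM3 was lost without either 10 nM combination array, and MCM7 without control replicate 3 or replicate 2 of the combination; with only these 2 groups in the fit 0 passed.

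The 1 nM combination gave the same 6 calls. MCM10 read 5.52, 5.85 and 5.77 and fell 6.5-fold (-2.70 ± 0.40, limma adjusted p = 0.00209). MCM4 read 8.39, 7.86 and 8.06 and fell 4.95-fold (-2.31 ± 0.21, limma adjusted p = 0.000128). MCM5 read 8.66, 8.47 and 8.02 and fell 4.90-fold (-2.29 ± 0.28), and MCM2 read 8.70, 9.11 and 9.01 and fell 4.19-fold (-2.07 ± 0.26). All 4 lay below every control array.

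MCM7 (10.64, 10.22 and 9.53) and MCM3 (9.79, 9.45 and 9.30) were again the least changed members that passed in the 1 nM combination. Their changes of -1.10 ± 0.27 and -0.82 ± 0.21 were close to the threshold (limma adjusted p = 0.0459 and 0.0497). MCM6 read 8.06, 9.15 and 9.27, and its change of -1.56 ± 0.50 missed the threshold (adjusted p = 0.138) but passed once replicate number was a block (limma adjusted p = 0.0255), and also when the narrow arrays were left out (-1.95). So 6 of 7 members fell in the 1 nM combination, where 1.58% of all genes did, and the median was -2.07 against 0.02 over all genes. Without the narrow arrays the count was also 6, since MCM3 missed the threshold (limma adjusted p = 0.0576), and after quantile normalization (0.172 and 0.119) or tested over all probe sets (0.0671 and 0.0635) MCM3 and MCM7 both missed it. Leaving out single arrays, the MCM3 call was kept in 3 of 17 fits and the MCM7 call in 5 of 17. MCM3 kept it only without replicate 1 of the 1 nM combination or replicate 1 or 2 of 10 nM rapamycin, and with only these 2 groups in the fit 0 members passed.

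**Figure D2:**
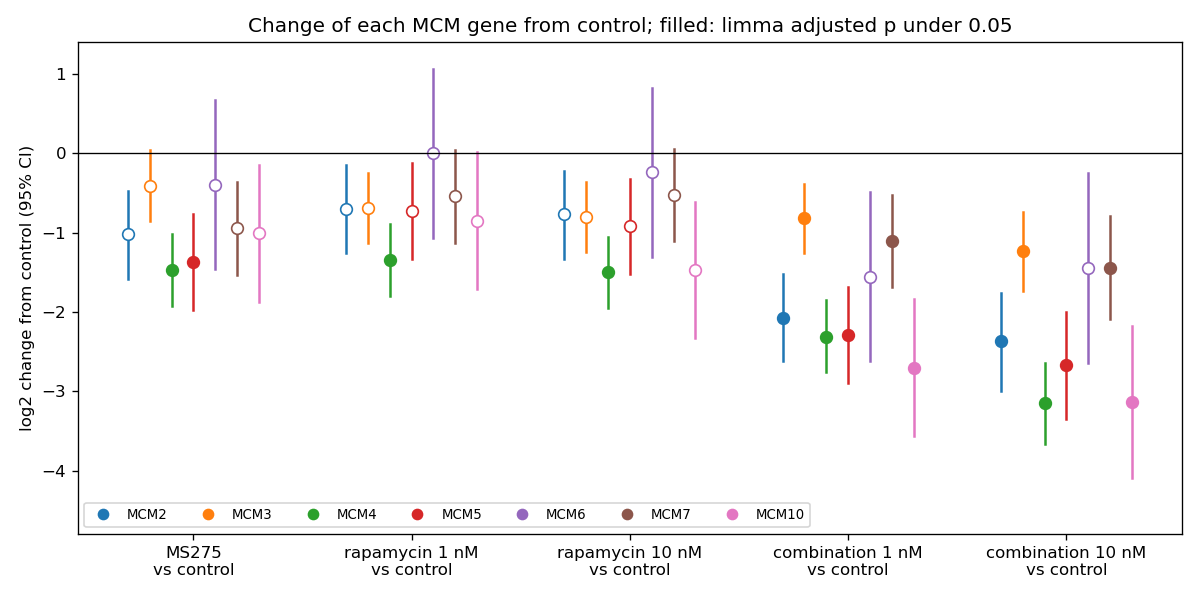
Log2 change from control (vertical axis) of each MCM gene in the 5 treated groups (horizontal axis), with 95% confidence intervals; filled points passed the limma test over all genes. Filled points number 2 with MS275, 1 with each rapamycin dose and 6 with each combination, and MCM6 is the open point in both combinations.

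Set against each single drug, the combinations were lower for some members. Compared with 1 nM rapamycin, 4 of 7 members were lower in the 1 nM combination, where 0.293% of all genes were: MCM5 (-1.57 ± 0.28, limma adjusted p = 0.0126), MCM2 (-1.37 ± 0.26, adjusted p = 0.0163), MCM10 (-1.85 ± 0.40, adjusted p = 0.0371) and MCM4 (-0.96 ± 0.21, adjusted p = 0.0405). Their values did not overlap between the groups, as with MCM10 at 5.52 to 5.85 against 7.34 to 7.81. MCM6 (-1.56 ± 0.50) joined them with the replicate block (adjusted p = 0.0398). MCM3 hardly differed (-0.13 ± 0.21) and overlapped. The count was 0 without replicate 2 or 3 of 1 nM rapamycin or replicate 3 of the combination. It was 2 without replicate 1 of MS275, of 1 nM rapamycin, of either combination, or without replicate 2 of either combination.

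Compared with 10 nM rapamycin, 3 of 7 members were lower in the 10 nM combination, where 0.137% of all genes were. They were MCM4 (-1.65 ± 0.24, limma adjusted p = 0.00573), MCM5 (-1.75 ± 0.32, adjusted p = 0.0269) and MCM2 (-1.60 ± 0.29, adjusted p = 0.0269). MCM10 was lower by a similar amount (-1.66 ± 0.45) without passing, its rapamycin arrays spanning 6.56 to 7.67. The count fell to 0 without either combination array and to 1 without replicate 2 or 3 of 10 nM rapamycin, and it was 5 without the 2 narrow arrays.

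Compared with MS275 alone, MCM4 was lower in the 10 nM combination, at 7.23 to 7.29 against 8.70 to 9.15 (-1.68 ± 0.24, limma adjusted p = 0.00674). It was the 1 member of 7 to pass, where 0.248% of all genes did. MCM10 (-2.13 ± 0.45) and MCM2 (-1.35 ± 0.29) both reached an adjusted p of 0.0862, and with the replicate block MCM10 passed (-2.07 ± 0.39, limma adjusted p = 0.0342). In the 1 nM combination 0 of 7 passed against MS275, where 0.101% of all genes did. At an unadjusted p under 0.05 there were 5 of 7 members and 878 of the 19775 genes. MCM10 differed by -1.70 ± 0.40 without overlap. Without control replicate 1, which enters the shared spread, the counts were 3 for the 10 nM and 1 for the 1 nM combination, without control replicate 3 the former was 2, and without either 10 nM combination array it was 0.

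The rapamycin doses did not separate. Between 10 and 1 nM rapamycin 0 of 7 members passed, as did 0% of all genes, with 0 members and 24 genes at an unadjusted p under 0.05, and member differences ran from -0.62 (MCM10) to 0.02 (MCM7). Between the combinations 0 of 7 passed, as did 0% of all genes, with 1 member and 152 genes at an unadjusted p under 0.05. That member was MCM4, at 7.23 to 7.29 with 10 nM against 7.86 to 8.39 with 1 nM (-0.84 ± 0.24, 95% interval -1.35 to -0.34, limma adjusted p = 0.995). MCM2 (-0.31 ± 0.29), MCM3 (-0.41 ± 0.23) and MCM10 (-0.43 ± 0.45) also read lower in the 10 nM combination without overlap (limma adjusted p = 0.995 each). MCM5, MCM6 and MCM7 overlapped. How many of all genes separated in this way was not counted, so no dose step is read from it.

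The interaction asks whether a combination differs from the sum of its single-drug changes on the log2 scale. For the 1 nM combination 0 of 7 members passed, as did 0% of all genes, and for the 10 nM combination 0 of 7 passed, as did 0% of all genes. At an unadjusted p under 0.05 there were 0 members in either, and 916 and 194 genes. The intervals are wide. MCM4 gave 0.51 (95% interval -0.13 to 1.15) at 1 nM and -0.18 (-0.86 to 0.50) at 10 nM, MCM2 gave -0.34 (-1.12 to 0.44) and -0.58 (-1.41 to 0.25), and MCM10 gave -0.85 (-2.07 to 0.37) and -0.66 (-1.95 to 0.64). A further 2-fold fall beyond the sum lay within the intervals of MCM2, MCM5, MCM6 and MCM10 for both combinations.

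Averaging each drug's change over the levels of the other uses all arrays at once. With MS275, averaged over 3 rapamycin levels, 6 of 7 members were lower, where 3.59% of all genes were. MCM5 changed most (-1.56 ± 0.17, limma adjusted p = 5.65e-05), followed by MCM10 (-1.51 ± 0.24), MCM4 (-1.36 ± 0.13), MCM2 (-1.33 ± 0.16), MCM6 (-1.05 ± 0.30) and MCM7 (-0.81 ± 0.16). MCM3 was the exception (-0.32 ± 0.12, limma adjusted p = 0.152). With rapamycin, averaged over both doses and both MS275 states, 5 of 7 members were lower, where 1.94% of all genes were: MCM10 (-1.53 ± 0.25, limma adjusted p = 0.00406), MCM4 (-1.34 ± 0.13), MCM2 (-0.97 ± 0.16), MCM5 (-0.97 ± 0.18) and MCM3 (-0.68 ± 0.13). MCM7 (-0.43 ± 0.17) and MCM6 (-0.61 ± 0.31) did not pass, although the second MCM7 probe set did (-0.63 ± 0.14, limma adjusted p over all probe sets = 0.0485).

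Whether the subunits moved by equal amounts was tested within each array, as a member's log2 signal less the mean of the other 6. Of 14 exact two-sided permutation tests over arrays, 6 passed after adjustment over the 14. These tests are not independent, because each member is part of the mean that the others are set against. A gain of 1 member thus lowers the relative values of the others. MCM3 gained most on its partners under MS275, by 0.95 ± 0.14 (permutation p = 0.00075, adjusted p = 0.0105). Centred over all 17 arrays, its relative value was 0.18, -0.63 and -0.96 in control, 0.16, 0.36 and -0.06 with MS275, and 1.01, 0.55 and 0.57 in the 1 nM combination. Its 8 MS275 arrays lay above its 6 rapamycin arrays without MS275, which spanned -0.61 to -0.31, and only control replicate 1 reached into their range. The gain was present at each rapamycin level, at 0.63 ± 0.24 with none, 1.18 ± 0.24 at 1 nM and 1.03 ± 0.27 at 10 nM, and in all 17 fits that left out an array.

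MCM5 lost ground on the others under MS275, by -0.50 ± 0.15 (permutation p = 0.0015, adjusted p = 0.0105), with near equal steps of -0.50, -0.49 and -0.51 at the 3 rapamycin levels. MCM2 lost less, by -0.23 ± 0.08 (permutation p = 0.0135, adjusted p = 0.0315), a call kept in 6 of 17 fits that left out an array. The MS275 mean effect of MCM2, -1.33, lay within the range of the members other than MCM3 (-0.81 to -1.56). Its relative loss thus rests in part on the MCM3 gain. Under rapamycin MCM10 lost -0.70 (permutation p = 0.00489, adjusted p = 0.0228) and MCM4 lost -0.45 (permutation p = 0.0119, adjusted p = 0.0315), while MCM7 gained 0.59 (permutation p = 0.00808, adjusted p = 0.0283). The MCM7 gain was 0.86 ± 0.29 and 0.90 ± 0.32 at 1 and 10 nM with MS275 present and 0.17 ± 0.29 and 0.43 ± 0.29 without it, a contrast that was not itself tested. The MCM4 difference turned to 0.15 (adjusted p = 0.409) when each gene was the mean of its probe sets, and those of MCM7 and MCM10 then missed the threshold. The count of 6 became 2 without control replicate 3, 3 without MS275 replicate 3, and 8 without the 2 narrow arrays.

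**Figure D3:**
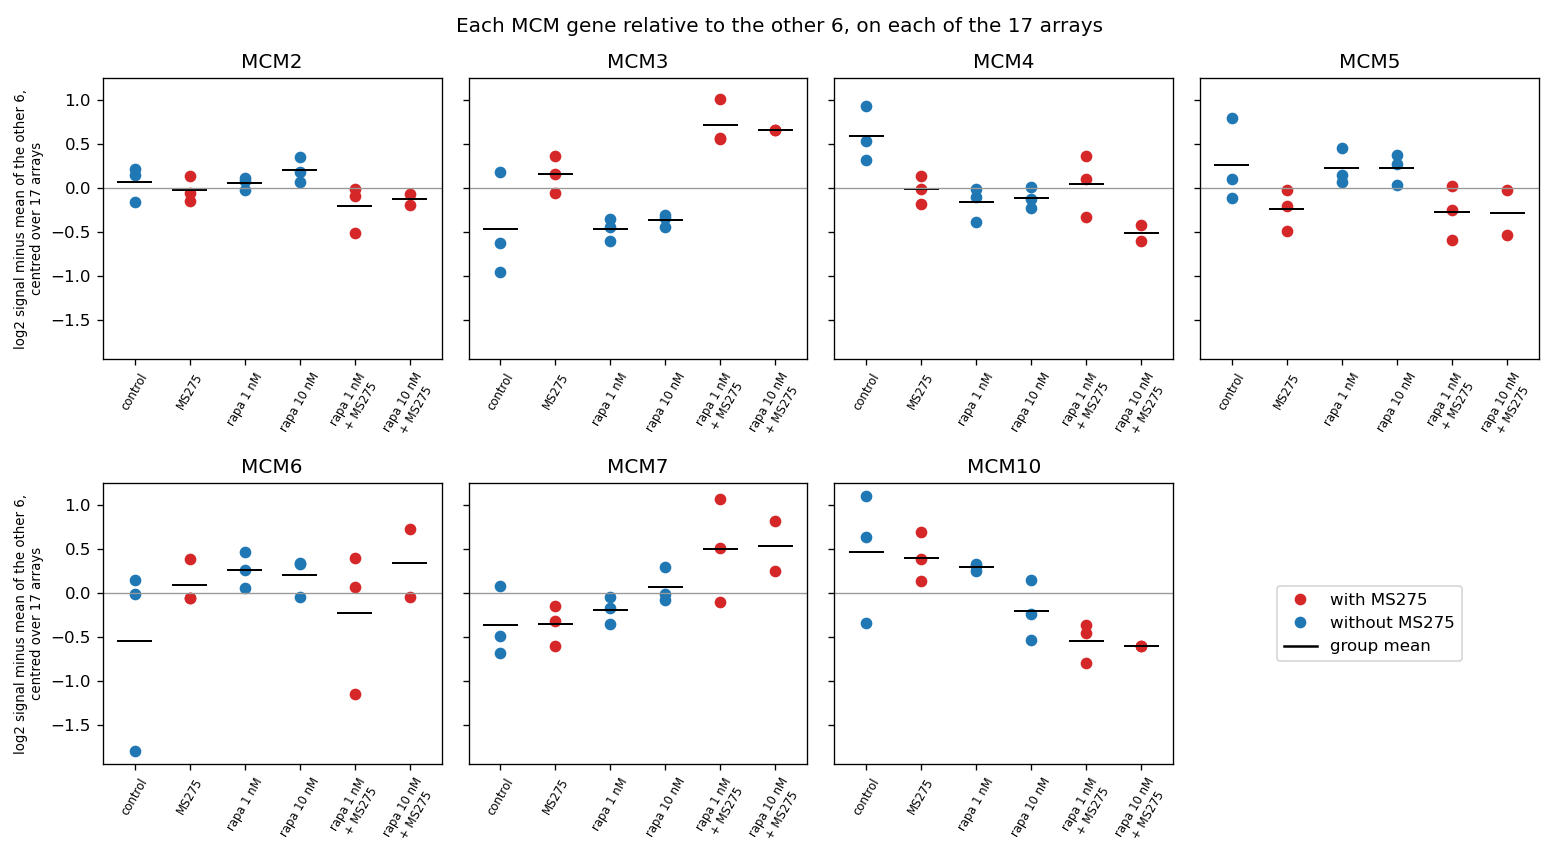
Log2 signal of each MCM gene less the mean of the other 6 on the same array, centred over 17 arrays (vertical axis), by treatment group (horizontal axis); points are arrays and bars are group means. MCM3 sits higher on arrays with MS275 (red) than without (blue), MCM5 sits lower, and MCM7 sits higher in the combinations on average.

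Further probe sets of MCM5, MCM6, MCM7 and MCM10 fell with the chosen ones in both combinations, though by differing amounts, and those of MCM4 did so only in part. MCM2 and MCM3 have a single probe set each, so the relative gain of MCM3 has no such check. The other probe sets of MCM5, MCM6, MCM7 and MCM10 correlated with the chosen ones at r from 0.92 to 0.97 over 17 arrays, as a description over arrays that share treatments. For MCM6 the second probe set, a dim one with a mean of 4.16, fell with both drugs at the lower rapamycin dose (-1.58 ± 0.31, limma adjusted p over all probe sets = 0.0186) and at the higher (-1.60 ± 0.35, adjusted p = 0.0297), where the chosen one did not pass. The second MCM7 probe set fell with MS275 alone (-1.40 ± 0.23, adjusted p = 0.0131) and by -2.09 ± 0.26 in the 10 nM combination, more than the chosen one. The further MCM10 probe sets, with means of 6.47 and 6.28, fell less than the chosen one. In the 10 nM combination they changed by -1.47 ± 0.23 and -2.25 ± 0.57, against -3.13 ± 0.45. The dimmer of them did not pass over all probe sets in the 10 nM combination (limma adjusted p = 0.0583) or the 1 nM combination (limma adjusted p = 0.0735).

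MCM4 has 4 further probe sets, with means of 8.46, 7.50, 5.70 and 5.60 against 8.87 for the chosen one, and r of 0.33, 0.68, 0.00 and 0.79 with it. In the 10 nM combination they changed by -0.79 ± 0.90, -1.78 ± 0.63, -0.24 ± 0.38 and -1.57 ± 0.41, none passing over all probe sets, against -3.15 ± 0.24. With 1 nM rapamycin the brightest of them was higher than control (0.89 ± 0.81), opposite to the chosen probe set. That with a mean of 5.60, alone among the 4, passed in the mean effect of MS275 (-0.83 ± 0.22, limma adjusted p over all probe sets = 0.0415). The size of the MCM4 change therefore depends on the probe set, as does that of MCM10. The single-drug calls of MCM4 rest on the chosen one.

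**Figure D4:**
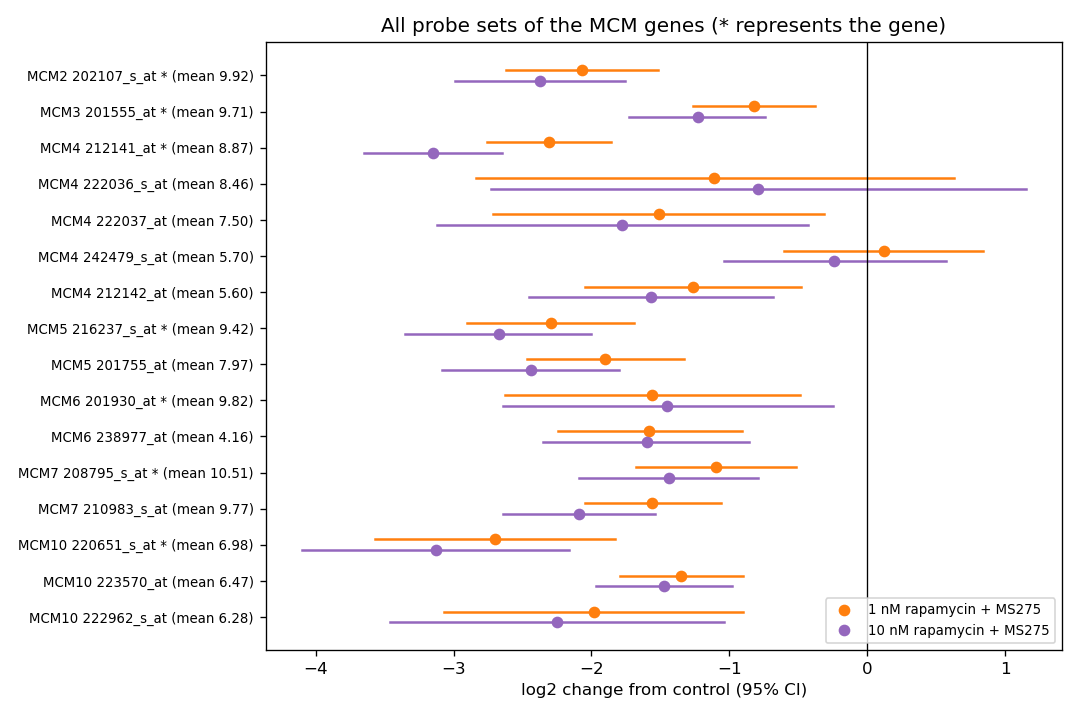
Log2 change from control (horizontal axis) with 95% confidence intervals in both combinations for all 16 MCM probe sets (vertical axis, with each mean log2 signal); an asterisk marks the probe set that represents its gene. The 4 further MCM4 probe sets lie nearer to 0 than the chosen one, and those with means of 8.46 and 5.70 span 0.

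Over the 17 arrays the members rose and fell together. Pearson r between pairs of members ranged from 0.36 (MCM3 and MCM6) to 0.96 (MCM2 and MCM5), with a median of 0.82 over 21 pairs, and after removing group means from -0.23 to 0.83 with a median of 0.47. The genes outside the set most like the members' mean were CDC45 (r = 0.981), which binds the ring to make the active helicase, TRIP13 (0.978), CDC25A (0.976), a phosphatase that activates cyclin-dependent kinases, TUBA1B (0.973), H2AX (0.969) and FOXM1 (0.967), a transcription factor of proliferating cells. These values describe arrays that share treatments and replicates.

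Other genes of licensing and helicase activation fell beside the members in the combinations. Of 25 measured, 9 fell with both drugs at 1 nM rapamycin and 8 at 10 nM, 1 with MS275, 2 with 10 nM rapamycin and 0 with 1 nM rapamycin (8 at an unadjusted p under 0.05 in limma), and none rose. Loading genes number 8, of which 3 fell with both drugs at the lower rapamycin dose and 2 at the higher. CDC6, which brings the ring to origins, changed by -2.56 ± 0.37 at the lower and -2.99 ± 0.41 at the higher dose. ORC1, the largest subunit of the origin recognition complex, changed by -2.01 ± 0.37 and -2.46 ± 0.42, and CDT1, the partner of CDC6 in loading, by -1.62 ± 0.37 in the 1 nM combination. CDT1 and ORC1 in the combinations, and RECQL4 and GMNN, are named after their values were seen.

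Of 12 activation genes, 5 fell in each combination, where 1.58% (1 nM) and 2.24% (10 nM) of all genes did. CDC45 fell by -1.25 ± 0.25 with MS275, -1.53 ± 0.25 with 10 nM rapamycin, and -2.40 ± 0.25 and -2.81 ± 0.28 in the combinations; with 1 nM rapamycin it gave -1.18 ± 0.25 (limma adjusted p = 0.0909). GINS2, a subunit of GINS, fell by -2.01 ± 0.21 and -2.56 ± 0.24 in the combinations, and GINS4 by -1.74 ± 0.30 with 10 nM rapamycin, -1.60 ± 0.30 and -2.56 ± 0.34 in the combinations. TICRR, a factor that helps CDC45 join the ring, fell by -1.53 ± 0.26 and -2.02 ± 0.29, and RECQL4, a helicase of the RecQ family, by -1.16 ± 0.28 and -1.45 ± 0.31. With a single drug TICRR (-0.92 ± 0.26 with MS275), GINS2 (-0.97 ± 0.21 with 10 nM rapamycin) and ORC1 (-1.71 ± 0.37 with 10 nM rapamycin) did not pass. GMNN, geminin, the inhibitor of CDT1, had a limma adjusted p of 0.0496 for its fall with 1 nM rapamycin plus MS275 (-1.29 ± 0.32) and 0.0382 with the higher dose (-1.49 ± 0.36).

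Set against the single drugs, GINS2 fell in each of the 4 comparisons, by -1.37 ± 0.21 and -1.92 ± 0.24 against MS275 and by -1.50 ± 0.21 and -1.59 ± 0.24 against rapamycin. CDC45 fell in the 10 nM combination against MS275 (-1.56 ± 0.28) and in the 1 nM combination against rapamycin (-1.22 ± 0.25), GINS4 fell only in the former (-2.46 ± 0.34) and CDC6 only in the latter (-1.61 ± 0.37). These comparisons share arrays with those against control. The 3 MCM relatives outside the ring, MCM8, MCM9 and MCMDC2, gave 0 calls in any treated group against control, with median changes from -0.28 to -0.04, and MCM9 was lower in the mean effect of MS275 (-0.57 ± 0.14, limma adjusted p = 0.0183).

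**Figure D5:**
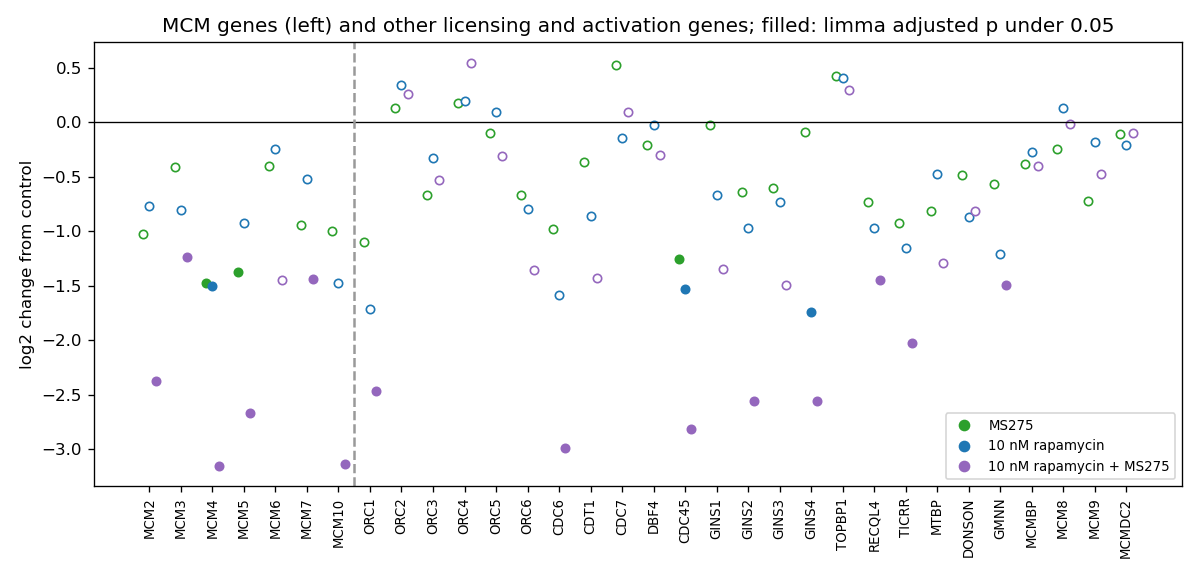
Log2 change from control (vertical axis) with MS275, 10 nM rapamycin and their combination for the 7 MCM genes, left of the dashed line, and 25 other licensing and activation genes (horizontal axis); filled points passed the limma test over all genes. In the combination 6 MCM genes and 8 of the others are filled, and every filled point lies below 0.

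Regulators and proliferation genes were read beside the members. Of 7 regulators, 1 fell in each group but 1 nM rapamycin. E2F2, an activating E2F, fell with MS275 (-1.48 ± 0.32, limma adjusted p = 0.0312), with 10 nM rapamycin (-1.87 ± 0.32) and in the combinations (-2.56 ± 0.32 and -3.23 ± 0.36), and reached -1.49 ± 0.32 with 1 nM rapamycin without passing. E2F1 and E2F3 did not pass in any treated group, with changes in the 10 nM combination of -0.69 ± 0.44 and 0.21 ± 0.26. MYC RNA did not pass either, at 0.44 ± 0.30 there. MKI67, which encodes the proliferation antigen Ki-67, fell in all 5 treated groups, from -1.32 ± 0.20 with MS275 to -2.56 ± 0.23 in the 10 nM combination, and its part in the MCM changes was not tested. It was the 1 of 5 proliferation genes to pass in each. The others did not share a direction with single drugs: with MS275 PCNA gave 0.60 ± 0.78, CCNE2 1.34 ± 0.67, CCNE1 -0.88 ± 0.36 and CCNA2 -0.36 ± 0.74, and with 1 nM rapamycin 2 of the 5 lay below 0, with a list median of 0.02. All 5 lay below 0 in both combinations, and CCNE1 passed in the mean effect of MS275 (-0.79 ± 0.22, limma adjusted p = 0.0357). PRKDC, the head-to-head neighbour of MCM4, did not pass in any group and was imprecise (1.10 ± 1.11 in the 10 nM combination).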

How the data were processed

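The deposited log2 signals per probe set were made by the authors with affy and RMA, per the submitters' processing notes; no version or setting is given in the sources used here. They were used without further normalization, although array medians differ. Of 54613 probe sets, 41091 carry 1 gene symbol, giving 19775 genes. No detection calls were used, so signal over background is unknown, and the number of arrays limits precision: the median 95% half-width of a change was 0.54, or 0.60 with the group of 2.

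All 17 arrays were fitted as 6 groups with limma 3.58.1 (lmFit, eBayes; R 4.3.3), with Benjamini-Hochberg adjustment over all genes and a threshold of 0.05. Code was tested on simulated data. Named genes were all 7 members, E2F1 to E2F3, MYC and PRKDC, the 4 licensing or activation genes with the smallest adjusted p in a comparison, and the 6 genes most like the members' mean. Members and lists were chosen with earlier results of these data known. Same-numbered replicates deviated together (every r over 0.1, 0.29 to 0.85) in 7 of 10 pairs of groups of 3. In the remaining pairs of groups of 3, r went as low as -0.34. No pair with the 10 nM combination met this rule, and r there went as low as -0.74. Both narrow arrays are replicate 1, and their part in the pairing was not tested. This pairing comes from the data, not the labels, and blocked values are given where they change a call. Alternatives were the block, array weights, other probe set rules, filters, quantile normalization and leaving out arrays.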

Additional observations from a re-analysis of the deposited data

How the results depend on the processing

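Counts of members that fell depended on the arrays and probe sets used and on how the fit was made. With only the groups compared in the fit, 0 passed for MS275, either rapamycin dose, either combination against control, the 10 nM combination against MS275 or against 10 nM rapamycin, and 1 for the 1 nM combination against 1 nM rapamycin; the changes themselves are the same there. Without the 2 narrow arrays, 5 members passed with MS275, 2 with 10 nM rapamycin, 3 for the 10 nM combination against MS275 and 5 against 10 nM rapamycin. With array weights, which gave replicate 1 of 1 nM rapamycin a weight of 11.3 and control replicate 1 a weight of 0.11, 6 passed with MS275, 7 with 1 nM and 6 with 10 nM rapamycin, and 2 for the 10 nM combination against MS275. With the mean of a gene's probe sets, 0 passed with 1 nM rapamycin, 10 nM rapamycin or the 10 nM combination against MS275, and the relative MCM4 change under rapamycin reversed to 0.15. Under the same rule the MCM4 call with MS275 was lost (-0.47), while MCM7 passed there (-1.17). Tested over all probe sets, 2 passed for the 1 nM combination against 1 nM rapamycin. With the replicate block, 2 passed for the 10 nM combination against MS275 (MCM10 joined MCM4), MCM2 passed with MS275 and MCM6 passed for the 1 nM combination against control and against 1 nM rapamycin; it changed no other call of a member. The share of all genes that passed was not counted for these alternatives or for fits that left out arrays. These member counts therefore cannot be set against all genes. The causes were not tested.

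Leaving out 1 array at a time, counts ranged from 1 to 4 for MS275, 0 to 1 for 1 nM and 0 to 2 for 10 nM rapamycin, 4 to 6 for the 1 nM and 4 to 7 for the 10 nM combination. Against MS275 they ranged from 0 to 1 and 0 to 3, and against rapamycin from 0 to 5 and 0 to 4, for the 1 and 10 nM combination. Mean effects ranged from 5 to 6 for either drug, and unequal changes from 2 to 8. Where a group was left with 1 array, that array is assumed to vary like the other groups. Counts for doses and interactions stayed at 0 in all these fits. Against control, the changes of MCM2, MCM4, MCM5 and MCM10 in both combinations kept their calls in 17 of 17 such fits each; against single drugs calls of these genes were lost, as the ranges show.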
